A study of Mus musculus with 12 samples.

Results

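Socs1, Socs2, Socs3, Cish and Pim1 are 5 genes that cytokine signalling through JAK kinases and STAT transcription factors can switch on, and whose proteins act back on signalling or on cell survival. They were taken by symbol from a table of 24062 gene entries, and all 5 were present and passed the filter for testing (more than 10 normalised counts in no fewer than 3 of all 12 libraries), which left 11440 genes. The RNA came from primary bone marrow derived macrophages of wild-type C57Bl/6 mice at passage 1, in 4 groups of 3 libraries. The groups were C-178 plus CMA for 2 h, CMA alone for 2 h, C-178 alone for 2 h, and no stimulation. C-178 is a covalent small-molecule inhibitor of STING, the adaptor that relays the sensing of cytosolic DNA, and CMA is a small-molecule agonist of mouse STING. No dose and no vehicle is stated in the labels used here, and no label says whether the libraries of a group came from separate mice or cultures, so the p-values measure the spread between these libraries, which may be technical.

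Cytokines and interferons bind receptors that carry JAK kinases, which phosphorylate STAT proteins that enter the nucleus and switch on target genes. SOCS proteins are among those targets and close a negative feedback loop: each has an SH2 domain that binds phosphotyrosine and a SOCS box that recruits a ubiquitin ligase. SOCS1 and SOCS3 also carry a short region that blocks the JAK catalytic site. SOCS1 is best known for restraining interferon signalling, SOCS3 for restraining signalling by interleukin-6 through the receptor chain gp130, and CISH and SOCS2 for restraining signalling through STAT5, as after growth hormone or some interleukins. PIM1 is a constitutively active serine/threonine kinase that supports survival and growth, and it is a classical STAT3 and STAT5 target with no SOCS box.

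Read depth recovered from the table was 7.77 to 36.4 M reads in C-178 plus CMA libraries, 7.13 to 7.83 M in CMA libraries, 7.05 to 28.5 M in C-178 libraries and 13.9 to 17.4 M in unstimulated libraries. On the leading principal component of the tested genes, which held 66.0% of the variance, C-178 plus CMA libraries lay at 10.3 to 38.4, between CMA libraries at 62.3 to 76.5 and the C-178 and unstimulated libraries at -49.4 to -44.8. Within C-178 plus CMA, library 3 lay lowest on that axis and library 2 highest, and the typical spread between libraries was the widest of the 4 groups (median SD of log2 values 0.34, against 0.148 with CMA alone, 0.179 with C-178 alone and 0.115 without stimulation). All 9 macrophage markers examined were above 100 normalised counts on average in each group. The submitters' extraction text speaks of embryonic fibroblasts, and 8 fibroblast markers summed to 380 to 822 normalised counts with C-178 plus CMA, 615 to 1125 with CMA, 638 to 808 with C-178 and 550 to 566 without stimulation, with Lum at 0 in all groups but C-178 alone. Of these 8 markers, 2, 3, 3 and 2 averaged above 100 normalised counts in the same order of groups. The 7 neutrophil markers found summed to 594 to 985 with C-178 plus CMA and 853 to 1203 without stimulation. For 8 lymphoid markers the sums were 692 to 937 and 990 to 1115 in these groups. The 4 dendritic cell markers summed to 67.1 to 148 and 111 to 147. Mast cell markers summed to 3.06 to 7.29 and 7.60 to 15.8, and macrophage markers to 337651 to 487541 and 343193 to 372135. The part of fibroblasts or of other cells in the results below was not tested.

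RefSeq start windows (GRCm38.p6) were found for 4 of the 5 genes, the 4 that CMA raised, and their start regions are shown to give the letters behind the STAT and interferon element matches. Each line runs from 250 bases before to 30 bases after the annotated start, 5′ to 3′ on the gene's strand, with motif matches in capitals. Socs1 lies at chr16:10785507-10785786 (minus strand), and its capitals mark 2 overlapping matches to the interferon-stimulated response element core GAAANNGAA, which begin 83 and 77 bases before the start. Socs3 lies at chr11:117969337-117969616 (minus strand), and its capitals mark a match to the STAT element GAS, TTCNNNGAA, 154 bases before the start. Cish lies at chr9:107296409-107296688 (plus strand), and its capitals mark 2 GAS matches, at bases 1 and 12 of the transcript. Pim1 has a pair of windows, of which the one at chr17:29490535-29490814 (plus strand) is printed, and neither holds a match.
Socs1: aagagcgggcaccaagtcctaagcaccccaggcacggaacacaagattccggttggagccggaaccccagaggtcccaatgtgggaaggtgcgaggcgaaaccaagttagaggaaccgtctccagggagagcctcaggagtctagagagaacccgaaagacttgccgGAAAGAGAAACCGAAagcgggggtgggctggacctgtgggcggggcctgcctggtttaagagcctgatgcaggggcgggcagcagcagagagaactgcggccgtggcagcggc
Socs3: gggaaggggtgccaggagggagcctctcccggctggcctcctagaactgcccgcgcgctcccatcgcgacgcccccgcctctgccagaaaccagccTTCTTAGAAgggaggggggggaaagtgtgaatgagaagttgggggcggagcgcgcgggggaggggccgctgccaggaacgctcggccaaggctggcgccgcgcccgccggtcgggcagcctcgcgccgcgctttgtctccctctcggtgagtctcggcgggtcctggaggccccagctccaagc
Cish: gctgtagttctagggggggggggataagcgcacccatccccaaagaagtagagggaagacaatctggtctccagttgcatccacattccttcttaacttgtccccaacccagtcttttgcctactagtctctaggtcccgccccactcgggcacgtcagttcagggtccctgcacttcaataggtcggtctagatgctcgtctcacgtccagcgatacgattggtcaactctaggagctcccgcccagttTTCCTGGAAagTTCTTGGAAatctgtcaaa
Pim1: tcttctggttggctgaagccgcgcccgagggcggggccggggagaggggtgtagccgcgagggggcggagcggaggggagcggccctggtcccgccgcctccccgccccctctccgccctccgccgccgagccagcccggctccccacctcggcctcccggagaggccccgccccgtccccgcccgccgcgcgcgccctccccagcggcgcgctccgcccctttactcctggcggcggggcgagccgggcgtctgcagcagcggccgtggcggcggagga
The search covered both strands of all windows. Among all 32851 RefSeq mouse windows of this length, 7.83% held a GAS match and 8.06% held the response element core. No window of the 4 genes held a match to the AP-1 motif TGANTCA (7.46% of all windows) or to the κB motif (7.94%). For Socs3 and Cish, the gene as positioned by GENCODE begins upstream of the printed window. Matches and their absence there hold for the RefSeq start alone, and the GENCODE start was not searched. A match describes letters in the window and is not a bound site.

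**Figure D1:**
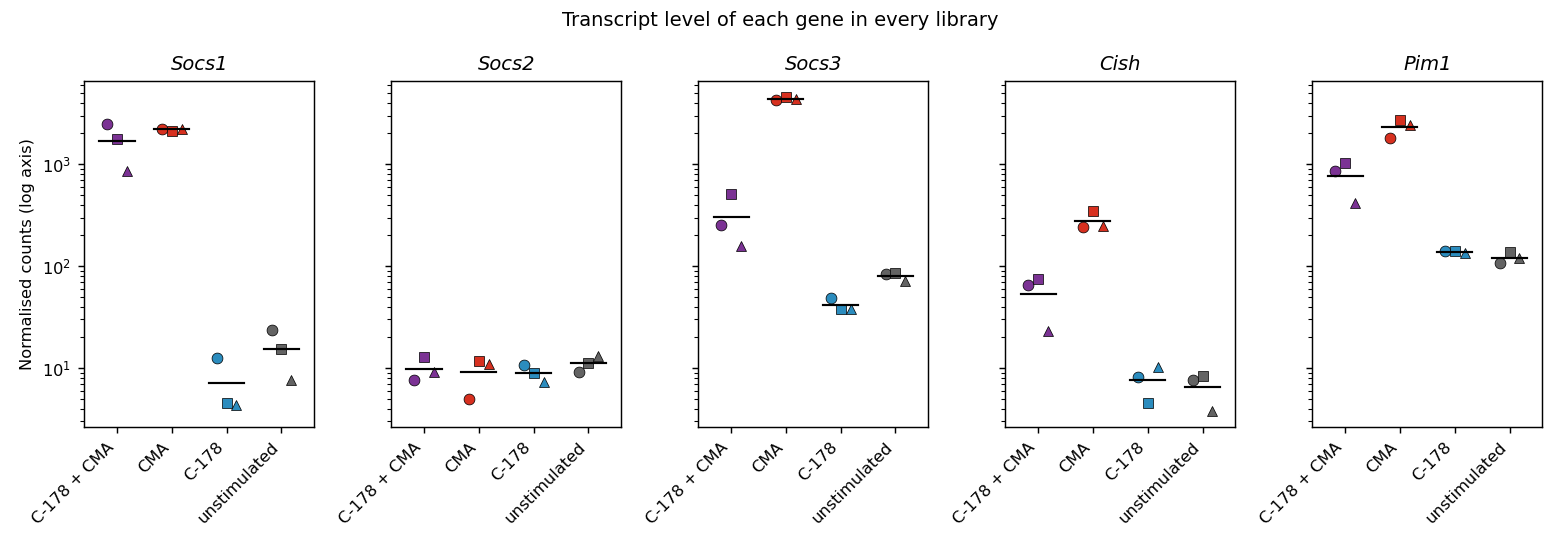
Normalised counts (log axis) of the 5 genes in each of the 12 libraries, by group. Circles, squares and triangles are libraries 1, 2 and 3 (1, a and b without stimulation) and the bars are group means. Socs3 separates the 4 groups, Socs1 is high in all 6 libraries with CMA, and Socs2 stays under 14 normalised counts in every library.

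Socs1, the main SOCS brake on interferon receptors (chr16:10782240-10785536, minus strand, mm10), had 2485, 1768 and 848 normalised counts in C-178 plus CMA libraries 1, 2 and 3. CMA alone gave 2235, 2118 and 2237. It had 12.6, 4.52 and 4.36 with C-178 alone and 23.6, 15.5 and 7.59 in unstimulated libraries 1, a and b. The gene was thus near the floor without CMA and high with it, and the C-178 plus CMA libraries reached on both sides of the narrow CMA range. CMA raised Socs1 141-fold in mean level (log2 change 7.18 ± 0.44 SE, limma adjusted p = 2.28e-08). In bulk RNA such as this, fewer cells of a type and less RNA per cell cannot be told apart. With C-178 present CMA still raised Socs1 238-fold over C-178 alone (7.72 ± 0.44, adjusted p = 2.43e-08). The C-178 mean rests on 41 reads, with 3 each in libraries 2 and 3, and the unstimulated mean on 69 reads, so neither fold is precise. C-178 plus CMA against CMA alone did not pass the test, at a log2 change of -0.50 (95% interval -1.45 to 0.44, adjusted p = 0.412), and this value was -0.07 without C-178 plus CMA library 3, the lowest of them, and -0.84 without library 1, the highest. The interval still allows a fall of more than 1 log2 unit.

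Socs3, the feedback gene of gp130 cytokines (chr11:117966079-117970047, minus strand, mm10), had 251, 507 and 159 normalised counts in the 3 C-178 plus CMA libraries, against 4274, 4585 and 4341 with CMA alone. It had 49.1, 37.6 and 37.8 with C-178 alone and 84.4, 84.8 and 71.5 without stimulation. No pair of groups overlapped, and the order of levels was CMA, then C-178 plus CMA, then no stimulation, then C-178. CMA raised Socs3 54.8-fold (log2 change 5.76 ± 0.30, limma adjusted p = 4.40e-09). It was 14.4-fold lower with C-178 plus CMA than with CMA alone (-4.01 ± 0.30, adjusted p = 3.74e-06), and the log2 change was -3.62 without C-178 plus CMA library 3. The level with both compounds was still 3.81-fold above no stimulation (1.76 ± 0.30, adjusted p = 0.000682) and 7.36-fold above C-178 alone (2.70 ± 0.30, adjusted p = 1.56e-05).

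Cish, the founding SOCS family gene and a STAT5 feedback gene (chr9:107296026-107302784, plus strand, mm10), had 64.7, 74.3 and 22.9 normalised counts with C-178 plus CMA. CMA alone gave 242, 347 and 246. The gene had 8.25, 4.52 and 10.2 with C-178 alone and 7.60, 8.36 and 3.80 without stimulation, which are 33 and 30 reads in all per group. The C-178 plus CMA libraries lay between the others, below every CMA library and above every library without CMA. CMA raised Cish 42.3-fold (log2 change 5.24 ± 0.43, limma adjusted p = 3.62e-07), and it was 5.16-fold lower with C-178 plus CMA than with CMA (-2.49 ± 0.43, adjusted p = 0.00158; -1.97 without C-178 plus CMA library 3). It remained 8.19-fold above no stimulation (2.75 ± 0.43, adjusted p = 0.000320) and 7.06-fold above C-178 alone (2.57 ± 0.43, adjusted p = 0.000571).

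Pim1, the kinase gene (chr17:29490753-29496112, plus strand, mm10), had 857, 1028 and 413 normalised counts with C-178 plus CMA, against 1798, 2726 and 2443 with CMA alone. Without CMA it was still well detected, at 140, 142 and 135 with C-178 and 107, 137 and 120 without stimulation, and these 2 groups overlapped. CMA raised Pim1 19.1-fold (log2 change 4.23 ± 0.27, limma adjusted p = 3.08e-08). It was 3.03-fold lower with C-178 plus CMA than with CMA alone (-1.68 ± 0.27, adjusted p = 0.000998; -1.28 without C-178 plus CMA library 3). It stood 6.31-fold above no stimulation (2.55 ± 0.27, adjusted p = 9.76e-06) and 5.51-fold above C-178 alone (2.35 ± 0.27, adjusted p = 2.02e-05). For Cish and Pim1, annotated transcripts on the opposite strand overlap the gene (Gm17040 and Gm17041 for Cish, Gm26885 for Pim1), and as no source used here gives the strand setting of the counting, their reads cannot be told apart from those of the gene.

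Socs2, the SOCS family brake on growth hormone signalling (chr10:95385362-95417180, minus strand, mm10), had 7.63, 12.9 and 9.17 normalised counts with C-178 plus CMA, 4.94, 11.8 and 11.01 with CMA, 10.8, 9.03 and 7.26 with C-178, and 9.12, 11.3 and 13.3 without stimulation. All 4 groups overlapped. These levels rest on 38, 15, 41 and 52 reads per group in the same order. The log2 change with CMA was -0.32 (95% interval -1.14 to 0.49, adjusted p = 0.548) and that of C-178 plus CMA against CMA was 0.14 (-0.68 to 0.95, adjusted p = 0.812). These intervals do not show that Socs2 stayed the same.

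**Figure D2:**
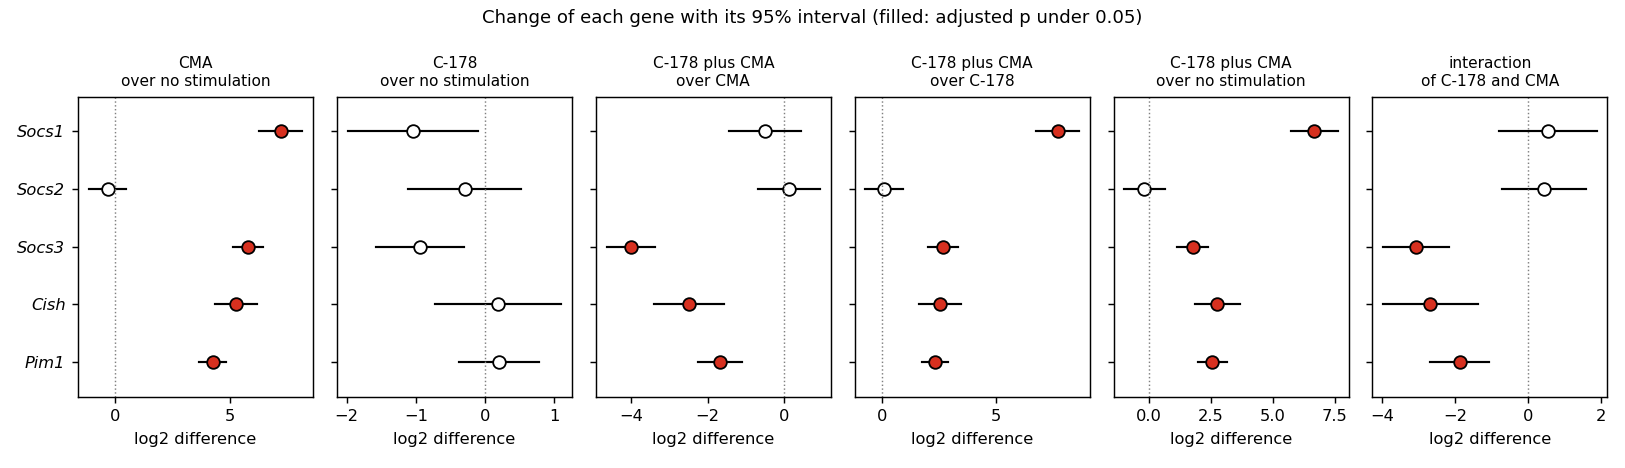
Log2 differences of the 5 genes in the 6 comparisons, with 95% intervals from limma; filled points have an adjusted p under 0.05. Socs1 is the gene with a filled point for CMA and an open one for C-178 plus CMA over CMA, and the Socs2 intervals span 0 in all panels.

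Set against all tested genes, CMA raised 4 of the 5 genes (19.4% of all tested genes were called higher with CMA than without stimulation). For the same 4 genes the CMA and unstimulated libraries did not overlap, as for 61.8% of all tested genes. C-178 plus CMA lowered 3 of the 5 relative to CMA alone (13.5% of all tested genes were called lower), again the 3 without overlap between these groups (35.5% of all tested genes). Relative to C-178 alone, 4 of the 5 were higher with C-178 plus CMA (13.5% of all tested genes were called higher), and relative to no stimulation the same 4 were higher and did not overlap (11.1% called higher and 34.5% without overlap among all tested genes). These comparisons share libraries and are not independent of each other. Without CMA, Cish exceeded 10 normalised counts only in C-178 library 3 (10.2), so it passed the filter through libraries with CMA. Its calls and lack of overlap in these counts therefore partly follow from the filter.

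C-178 alone changed none of the 5 by limma at adjusted p under 0.05, by edgeR or by DESeq2, in a comparison in which 0.0962% of all tested genes were called in either direction. At an unadjusted p under 0.05 there were 2, both lower with C-178 (3.67% of all tested genes had such a p in this comparison). Socs3 averaged 41.5 ± 6.59 normalised counts with C-178 and 80.2 ± 7.56 without stimulation (SD, n = 3 each), a 1.93-fold lower mean. Its groups did not overlap, but the share of all tested genes without overlap was not counted for this comparison. The Socs3 test did not pass (log2 change -0.94 ± 0.30, limma adjusted p = 0.944). That error pools the spread of all 4 groups. A limma fit of only the groups compared gave an error of 0.17 and an adjusted p of 0.0634, which did not pass either. Socs1 averaged 7.14 ± 4.68 with C-178 and 15.6 ± 7.99 without stimulation (SD, n = 3 each), with groups that overlapped. Its log2 change of -1.04 ± 0.44 did not pass either (limma adjusted p = 1). When libraries were weighted by their quality, limma called both lower, Socs3 at -1.07 (adjusted p = 8.30e-06) and Socs1 at -1.40 (adjusted p = 0.00104), and the same setting called 1849 of all tested genes in this comparison, against 11. Pim1 differed by 0.20 (95% interval -0.37 to 0.77) and Cish by 0.19 (-0.73 to 1.10), neither of which passed.

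The question whether C-178 altered the CMA response itself, over and above what it did alone, is addressed by the interaction of both compounds. The response was smaller with C-178 for Socs3 (log2 difference of the 2 responses -3.07 ± 0.42, limma adjusted p = 0.00137), for Cish (-2.68 ± 0.60, adjusted p = 0.0173) and for Pim1 (-1.88 ± 0.38, adjusted p = 0.0106), which are 3 of the 5 genes, in a comparison where 5.99% of all tested genes were called negative. The Cish result had an adjusted p of 0.0605 without CMA library 2, its highest CMA library. Socs1 did not pass, at 0.54 (95% interval -0.80 to 1.87, adjusted p = 0.565), and neither did Socs2, at 0.43 (-0.73 to 1.58, adjusted p = 0.600).

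The rise that was left with C-178 graded the 4 induced genes. Taking the mean rise of CMA libraries over the unstimulated mean as 100%, Socs3 kept 3.96, 9.88 and 1.82% of it in C-178 plus CMA libraries 1, 2 and 3, a mean of 5.22 ± 4.17% (SD, n = 3) that was 2.89% without library 2. Cish kept 21.4, 24.9 and 6.01% (mean 17.4 ± 10.04%), and Pim1 kept 33.4, 41.2 and 13.2% (29.3 ± 14.4%). Socs1 kept 113, 80.3 and 38.2% (77.2 ± 37.6%). Within each of the 3 libraries the order was Socs3, Cish, Pim1 and Socs1 from least to most, although the percentages of each neighbouring pair overlapped between libraries. Library 3 was the lowest for all 4 genes, as it was on the leading principal component.

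**Figure D3:**
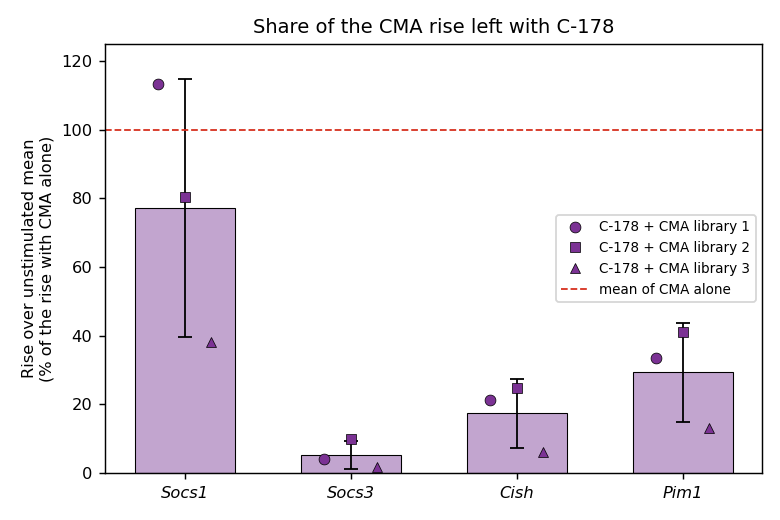
Percentage of the CMA rise left with C-178 for the 4 genes that CMA raised; bars are means, error bars SD of the 3 C-178 plus CMA libraries, and the dashed line is the CMA mean. Library 3 (triangles) is lowest for every gene, and each library shows the same order from Socs3 at 1.82 to 9.88% to Socs1 at 38.2 to 113%.

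Ratios between genes within a library depend little on its scaling, and they show which genes moved apart with C-178. The log2 ratio of Socs1 to Socs3 was 1.80 to 3.30 in C-178 plus CMA libraries and -1.11 to -0.93 in CMA libraries, a difference of 3.50, so that Socs1 exceeded Socs3 in each C-178 plus CMA library and fell short of it in each CMA library. Socs1 against Cish differed by 1.99 and Socs1 against Pim1 by 1.18. Socs3 lost ground to Pim1 (-2.33) and to Cish (-1.52), and Cish to Pim1 (-0.81). Against Socs2, which passed the test in no comparison, Socs3 differed most (Socs2 to Socs3, 4.14), then Cish (2.62) and Pim1 (1.81). Ratios to Socs2 are imprecise, as it rests on 38 reads with C-178 plus CMA and 15 with CMA. In 9 of the 10 pairs compared the groups did not overlap, which gives an exact two-sided permutation p of 0.1, the smallest that 3 against 3 libraries allow (0.111 after adjustment over the 10 pairs), and no pair can therefore pass 0.05. The exception was Socs1 to Socs2, at -0.64 with overlapping groups (exact permutation p = 0.4, adjusted 0.4). The pairs share genes and are not independent of each other. Between the same groups, 35.5% of all tested genes did not overlap in their own levels, and ratios of other genes were not computed.

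**Figure D4:**
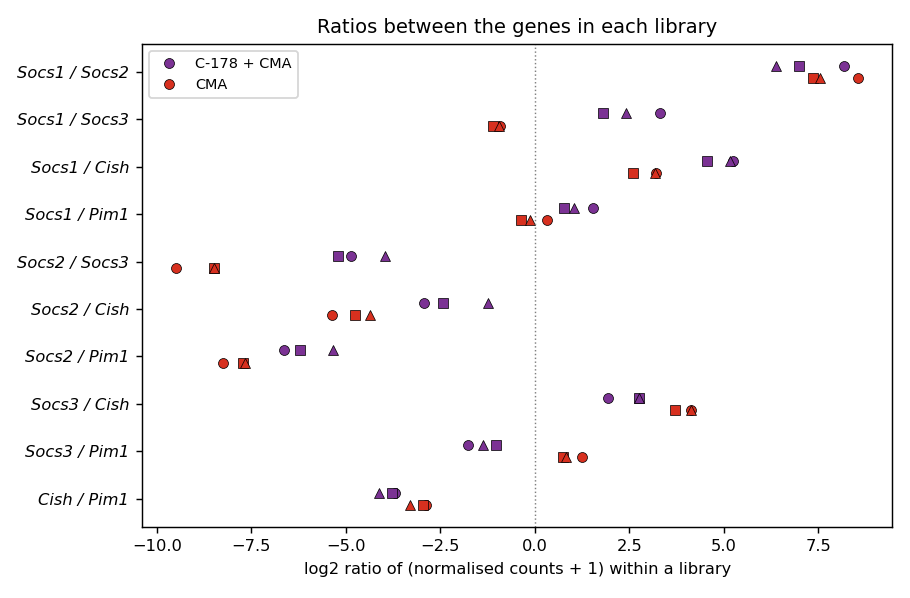
Log2 ratio of 2 genes within each C-178 plus CMA library (purple) and each CMA library (red); circles, squares and triangles are libraries 1, 2 and 3. The groups are apart for all pairs but Socs1 to Socs2, with the widest gaps for Socs2 to Socs3 (4.14) and Socs1 to Socs3 (3.50). Socs2 rests on 15 reads with CMA, so its ratios are imprecise.

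The order of the 5 genes among each other changed between groups when levels were set per kilobase of the longest principal transcript. With C-178 plus CMA, Socs1 led at 585 ± 282 normalised counts per kb (SD, n = 3), followed by Pim1 at 284 ± 118, Socs3 at 120 ± 70.6, Cish at 18.9 ± 9.58 and Socs2 at 4.45 ± 1.21, where Socs1 and Pim1 overlapped, as did Pim1 and Socs3. With CMA alone, Socs3 led at 1724 ± 64.2 per kb, above Pim1 at 861 ± 176 and Socs1 at 755 ± 23.5, which overlapped, then Cish at 97.7 ± 20.9 and Socs2 at 4.17 ± 1.69. Socs3 was thus the top gene of the 5 with CMA alone and the third with both compounds. With C-178 alone, Pim1 stood at 51.5 ± 1.25 per kb and Socs3 at 16.3 ± 2.58, and the other 3 genes lay between 1.50 and 4.84 in single libraries. Without stimulation, Pim1 stood at 45 ± 5.62 and Socs3 at 31.4 ± 2.96, and the other 3 lay between 1.33 and 8.10.

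Over the 12 libraries, log2 levels of Cish and Pim1 went most closely together (Pearson r = 0.985, n = 12, 4 groups of 3 libraries), ahead of Socs3 with Cish (0.962) and with Pim1 (0.951). Of the 6 pairs among the 4 induced genes, Socs1 and Socs3 had the lowest r (0.852). These values are descriptions, since libraries of a group share their treatment. The genes named next were picked by their r over these same libraries, so their changes between groups largely follow from that choice. The genes most like Socs1 were Fcgr1, the high-affinity Fc gamma receptor, which is also among the macrophage markers (r = 0.993), Usp18, the protease that removes ISG15 and restrains the interferon receptor (0.992), and Ifit3, an antiviral interferon-induced gene (0.992). Their log2 changes for C-178 plus CMA over CMA were -0.22, 0.05 and -0.41, and none of the 3 passed the test. The genes most like Socs3 were Stx11, a syntaxin gene (0.992), Naaa, a lysosomal amidase gene (0.991), and Icam1, an adhesion molecule (0.989), and all 3 were lower with C-178 plus CMA than with CMA (-2.46, -0.87 and -1.85). Cish was most like Ppp6r1, a phosphatase subunit gene (0.992), Csrnp1 (0.989) and Lrp4, a receptor of the LDL receptor family (0.988), which were lower by the same comparison at -0.54, -1.96 and -1.13. Pim1 was most like Tnks1bp1 (0.995), D16Ertd472e (0.994) and Rap2c, a small GTPase gene (0.994), which were lower at -1.06, -1.37 and -0.90. Socs2 had no close match, and its nearest were Rbpj, the Notch pathway transcription factor (0.775), and Pafah1b2 (0.746).

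The close relatives of these genes were mixed. Counts of genes called in the lists below stand against all tested genes, of which 19.4% were called higher and 17.9% lower with CMA than without stimulation, and 10.6% higher and 13.5% lower with C-178 plus CMA than with CMA alone. Of the 4 other SOCS genes, Socs7 rose with CMA (log2 change 2.64, limma adjusted p = 3.83e-06), with 777 ± 328 normalised counts with C-178 plus CMA, 1331 ± 254 with CMA, 228 ± 24.1 with C-178 and 211 ± 14.5 without stimulation (SD, n = 3 each). Socs5 fell by 1.49 with CMA (adjusted p = 1.61e-05), while Socs4 (0.59, adjusted p = 0.0668) and Socs6 (0.68, adjusted p = 0.0617) did not pass. Relative to CMA alone, Socs4 (-0.91) and Socs7 (-0.87) were lower with C-178 plus CMA, and Socs5 (0.29) and Socs6 (-0.11) did not pass. Of the other Pim kinase genes, Pim2 fell by 1.32 with CMA (adjusted p = 1.40e-05) and Pim3 did not pass (-0.23), and neither passed for C-178 plus CMA over CMA (0.13 each). Among the 4 genes of the SOCS box ubiquitin ligase, Tceb1, which encodes elongin C, rose by 0.71 with CMA. The scaffold gene Cul5 (0.39), the RING gene Rnf7 (-0.09) and Tceb2, which encodes elongin B (-0.42), did not pass. With C-178 plus CMA, Cul5 (-0.57) and Tceb1 (-0.46) were lower and Tceb2 (0.85) was higher than with CMA alone, and Rnf7 (0.26) did not pass.

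Of the 10 JAK and STAT genes given here, 6 rose and 1 fell with CMA (19.4% and 17.9% of all tested genes did), while the median log2 change over all tested genes was -0.01. Stat2 (2.34), Jak2 (2.19), Stat3 (1.24), Stat5b (0.67), Jak3 (0.65) and Tyk2 (0.49) rose and Stat6 fell by 0.43, while Jak1 (0.20), Stat5a (0.29) and Stat4 (-0.03) did not pass. Relative to CMA alone, Jak2 (-1.09), Jak3 (-0.52) and Jak1 (-0.41) were lower with C-178 plus CMA (the median over all tested genes was 0.0036). Stat2 (-0.38) and Stat3 (-0.47) did not pass in that comparison. STAT mRNA levels do not report STAT phosphorylation, which was not measured.

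Several ligands of JAK-coupled receptors rose with CMA. Of 24 ligand genes 10 were tested, of which 7 rose with CMA (median 2.60), or 70% beside 19.4% of all tested genes, and none fell. C-178 plus CMA was lower than CMA for 4 and higher for 1 (median -0.56), or 40% beside 13.5% and 10% beside 10.6%. The rest of the 24 did not pass the filter. A ligand gene near 0 without CMA is tested only if it is high with CMA, as for Ifnb1. These shares and medians therefore partly follow from the filter and do not describe all 24 ligand genes. Ifnb1, which encodes interferon beta, averaged 59.4 ± 22.5 normalised counts with C-178 plus CMA, 1755 ± 408 with CMA and 2.21 ± 1.30 with C-178, and was at 0 in all 3 unstimulated libraries. Il6 averaged 71.3 ± 18.4 with C-178 plus CMA and 631 ± 83.7 with CMA (SD, n = 3 each, log2 change -3.15, adjusted p = 0.00139). Il27, which encodes a cytokine chain that signals through JAK kinases, averaged 149 ± 20.7 with C-178 plus CMA and 481 ± 116 with CMA (-1.66). Il15, which encodes a cytokine that signals through STAT5, averaged 1295 ± 422 with C-178 plus CMA and 1592 ± 208 with CMA (-0.34, not called). Of 25 receptor genes 23 were tested, of which 4 rose and 7 fell with CMA (median -0.11), which is 17.4% higher and 30.4% lower, beside 19.4% and 17.9% of all tested genes. Relative to CMA alone 4 receptor genes were higher and 2 lower with C-178 plus CMA (median -0.17), which is 17.4% higher and 8.70% lower, beside 10.6% and 13.5%. The receptor genes with the smallest adjusted p for CMA were Il6ra (-2.08), Ifngr2 (-2.02) and Ifnar1 (-0.91), which fell, and Il10ra (0.95), which rose.

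**Figure D5:**
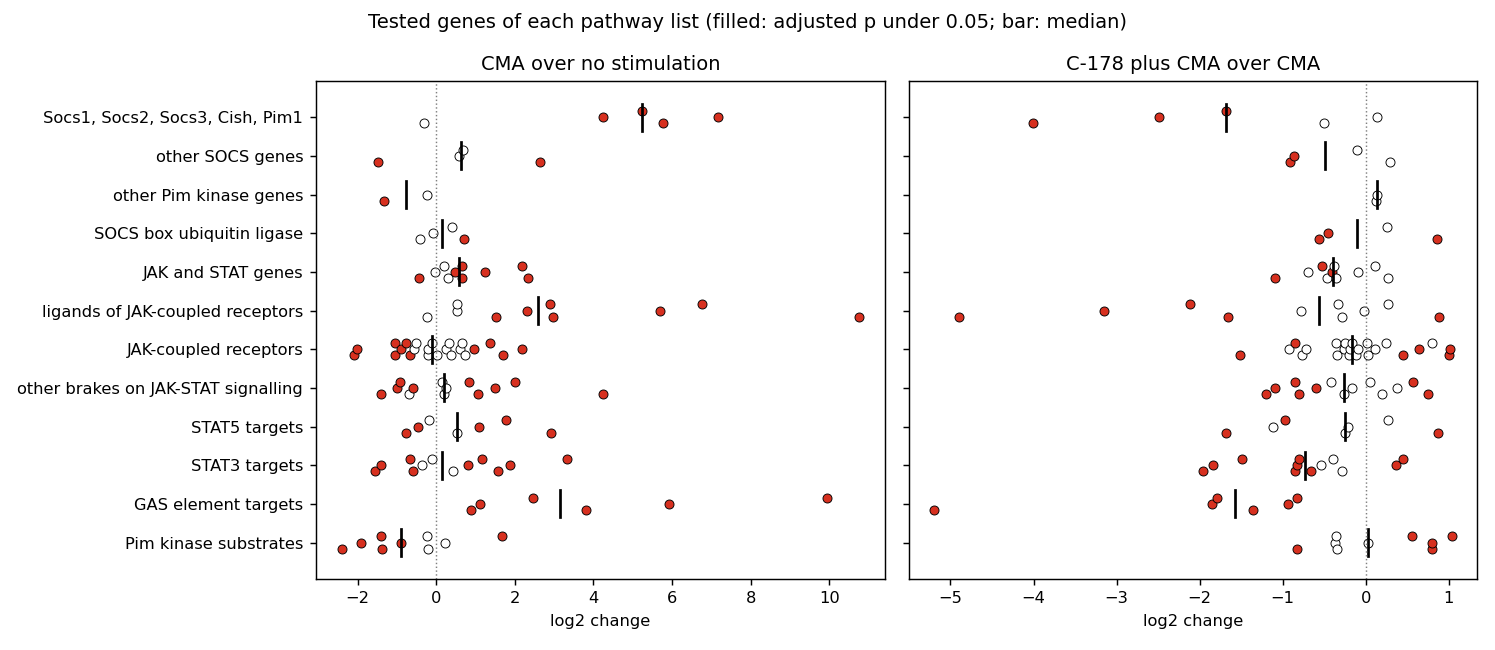
Log2 changes of tested genes of the pathway lists in 2 comparisons, CMA over no stimulation (left) and C-178 plus CMA over CMA (right); filled points have an adjusted p under 0.05 and bars are medians. Socs1, Socs3, Cish and Pim1 lie at 4.23 to 7.18 on the left, beyond every other SOCS and Pim gene, and Socs3, Cish and Pim1 at -4.01 to -1.68 on the right.

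Other brakes on JAK-STAT signalling were mixed. Of 13 genes, 5 rose and 4 fell with CMA (median 0.20), or 38.5% and 30.8% beside 19.4% and 17.9% of all tested genes, led by Usp18 (4.24) and by the phosphatase gene Ptpn2 (2.02), which acts on JAK1 and JAK3, and the adaptor gene Sh2b3 fell (-1.41). The phosphatase gene Ptprc, which encodes CD45, rose by 1.51. Relative to CMA alone, 5 were lower and 2 higher with C-178 plus CMA (median -0.26), or 38.5% and 15.4% beside 13.5% and 10.6%. Ptpn2 (-1.20) and Ptprc (-1.10) were lower, Sh2b3 was higher (0.75) and Usp18 did not pass (0.05). As with Socs1, the Usp18 level with both compounds (8338 ± 3305 normalised counts) spanned that with CMA alone (7649 ± 567).

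Known targets of STAT proteins were counted as lists, and each pair of values that follows is the log2 change with CMA and then that of C-178 plus CMA over CMA. All 6 listed interferon-induced targets with GAS elements rose with CMA (median 3.14), beside 19.4% of all tested genes. All 6 were lower with C-178 plus CMA than with CMA (median -1.57), beside 13.5%. Among them were Gbp2, a GTPase gene (5.93 and -1.35), and Irf1, a transcription factor gene (3.82 and -0.83). The list also held the chemokine gene Cxcl9 (9.94 and -5.19) and Icam1 (2.47 and -1.85). Of 12 STAT3 targets, 5 rose and 4 fell with CMA (median 0.16), or 41.7% and 33.3% beside 19.4% and 17.9% of all tested genes. With C-178 plus CMA, 7 were lower and 2 higher than with CMA (median -0.73), or 58.3% and 16.7% beside 13.5% and 10.6%. Nfil3 (3.33 and -1.96), Etv3 (1.17 and -0.28, the second not called), Il1rn (1.88 and -1.49) and Junb (1.56 and -1.84) had the smallest adjusted p among them for CMA. Of 7 tested STAT5 targets, 3 rose and 2 fell with CMA (median 0.52), or 42.9% and 28.6%, and 2 were lower and 1 higher with C-178 plus CMA (median -0.25), or 28.6% and 14.3%. Ccnd2, which encodes cyclin D2 (2.93 and -1.12), was not called in the second comparison, while Bcl6 (1.10 and -0.97), the survival gene Bcl2l1 (-0.76 and 0.87) and Il2ra (1.78 and -1.68) were called in both. Of 9 genes whose proteins PIM kinases phosphorylate, 1 rose and 5 fell with CMA (median -0.90), or 11.1% and 55.6% beside 19.4% and 17.9% of all tested genes. Relative to CMA alone 4 were higher and 1 lower with C-178 plus CMA (median 0.028), or 44.4% and 11.1% beside 10.6% and 13.5%. Cdkn1a, which encodes p21, rose with CMA (1.67), and Cdkn1b, which encodes p27 (-1.90), the transcription factor gene Foxo3 (-2.40) and Akt1s1 (-1.38) fell.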

How the data were processed

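The deposited table holds a signal per gene and library that the authors had scaled (normalised counts). Its header has the columns DESeq2 writes, so size-factor scaling is inferred, and its 12 columns of Cook's distances were left out. Per the submitters' processing notes, the build was mm10 and the tools Bowtie2 2.2.1 and limma 3.18.13. The labels name a stranded TruSeq mRNA kit. No source used here gives the counting tool, the annotation or the strand setting. Each column divided by its smallest step gave whole reads for 100% of values (tolerance 0.01).

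Log2 of the normalised counts + 1 was fitted with limma 3.58.1 (R 4.3.3) over all 12 libraries, for genes above 10 in at least 3 libraries, using eBayes with its trend option. p-values were adjusted by Benjamini and Hochberg over the 11440 tested genes, and calls are at adjusted p under 0.05. edgeR 4.0.16 (quasi-likelihood) and DESeq2 1.42.0 were run on the recovered reads, and edgeR called 4282, 13, 2755, 3139, 2768 and 1183 genes, against 4271, 11, 2760, 2988, 2464 and 1137 by limma, for CMA over no stimulation, C-178 over no stimulation, C-178 plus CMA over CMA, over C-178 and over no stimulation, and the interaction. Rescaling by TMM moved no library by more than 0.0255 (log2). Folds are ratios of group means, and log2 changes with the pseudocount of 1 understate those of low genes. Positions are from GENCODE M21.

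The members and lists were chosen with earlier results of these data known. Named are the 5 genes, all of the SOCS, Pim, ligase, and JAK and STAT lists, up to 4 genes per other list with the smallest adjusted p for CMA, and for each of the 5 the 3 tested genes (mean at least 100) with the highest Pearson r. A few genes under this rule are not reported here.

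A pair of unstimulated columns shares a heading, so these libraries are called 1, a and b. In the pairing check, deviations of same-numbered C-178 plus CMA and C-178 libraries correlated at 0.45, 0.427 and 0.263. The values were -0.141, 0.18 and -0.162 for C-178 plus CMA with CMA, and -0.0352, 0.0593 and -0.0805 for CMA with C-178. Libraries of different numbers were not compared, and library 1 was the deepest both with C-178 and with C-178 plus CMA. Whether depth or a shared culture lies behind the correlations was not tested. As no label states a pairing, the main fit had no block. A fit with the number as a replicate block was run over the 9 treated libraries, and, chosen after seeing the data, over all 12 with unstimulated libraries a and b as numbers 2 and 3 either way.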

Additional observations from a re-analysis of the deposited data

Results flagged for a closer look

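The response of Socs3 to CMA with C-178 differed from that without it by -3.07 on the log2 scale (limma interaction, adjusted p = 0.00137), the SOCS gene of gp130 cytokines having the strongest such difference of the 5 genes. For Cish the difference was -2.68 (adjusted p = 0.0173) and for Pim1 it was -1.88 (adjusted p = 0.0106). Each was flagged because the CMA effect differed between the arms with and without C-178 by a test of the difference itself. All 3 C-178 plus CMA libraries lay below all 3 CMA libraries for each of these genes, and 35.5% of all tested genes did not overlap between these groups. The interaction was called negative for 5.99% of all tested genes.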

How the results depend on the processing

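The log2 changes of the 5 genes were recomputed under other scalings, filters, pseudocounts, tools, depths, library weights and without each library, 699 values in all, of which 686 kept their direction and their side of the threshold (559 of 564 for Socs1, Socs3, Cish and Pim1). Many of these values could not change direction. The log2 change stays the same under another filter, a replicate block or a fit of only the groups compared. It also stays the same when the library left out lies outside the comparison. In such settings only the error and the adjusted p can move. Array weights called 2 changes of C-178 over no stimulation, Socs1 (-1.40) and Socs3 (-1.07). Socs2, near 10 normalised counts, turned in sign for C-178 plus CMA over CMA with array weights (-0.0876) and over C-178 with edgeR (-0.0556) and DESeq2 (-0.0165), and it was not tested with a filter above 50. Leaving out single libraries gave ranges of -0.52 to 0.034 for Socs2 with CMA (sign turned without CMA library 1), -0.22 to 0.34 for Socs2 in C-178 plus CMA over CMA (turned without CMA library 1 or C-178 plus CMA library 2), -0.0825 to 0.26 for Socs2 over C-178 (turned without C-178 library 3 or C-178 plus CMA library 2), -0.11 to 0.48 for Cish with C-178 (turned without unstimulated library b or C-178 library 3) and -2.99 to -2.16 for the Cish interaction (not called without CMA library 2, -2.51). The cause was not tested.

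The numbers of all genes called moved more. Array weights gave 7380 for CMA over no stimulation, 1849 for C-178 over no stimulation and 3111 for the interaction. Fits of only the groups compared gave 31 for C-178 over no stimulation, 854 for C-178 plus CMA over CMA, 1338 over C-178 and 1531 over no stimulation. DESeq2 gave 38 for C-178 over no stimulation and 1760 for the interaction. Without single libraries the counts were 4 to 29 for C-178 over no stimulation, 1344 to 4711 for C-178 plus CMA over CMA, 1941 to 4181 over C-178 and 343 to 3699 for the interaction, highest in the last 3 without C-178 plus CMA library 2. The lowest were without CMA library 2 (1344 and 343), C-178 library 2 (1941) and unstimulated library a (4). The count moved by over 1.5 times without CMA library 2 or 3 or C-178 plus CMA library 2 for C-178 plus CMA over CMA, without C-178 library 2 over C-178, without any unstimulated or C-178 plus CMA library or C-178 library 2 for C-178 over no stimulation, and without any library but C-178 library 1, CMA library 1 and C-178 plus CMA libraries 1 and 3 for the interaction.

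With the library number as a replicate block, C-178 plus CMA over CMA was -4.01 for Socs3 (adjusted p = 3.53e-05), -2.49 for Cish and -1.68 for Pim1, and over C-178 it was 7.72 for Socs1. The block changed no call of the 5 genes, and it called 2380 genes over CMA and 2601 over C-178. A pair of unstimulated columns carries no number of its own, so, as an alternative chosen after seeing the data, the block was also fitted over all 12 libraries with these taken as numbers 2 and 3 either way. No call of the 5 genes changed under either assignment in the comparisons with no stimulation or the interaction, and the interaction's adjusted p was 0.0154 and 0.0195 for Cish. The genes called were 4328 and 4359 with CMA, 12 and 11 with C-178, 2468 and 2493 with both, and 1410 and 1576 for the interaction. Depth limits Socs2 and the levels of Socs1 and Cish without CMA, which rest on 30 to 69 reads per group.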
